A study of Mus musculus with 12 samples.

Results

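The homeostatic microglia genes are 9 genes that resting microglia of the adult brain express strongly: P2ry12, Gpr34, Cx3cr1, Csf1r, Tmem119, Siglech, Fcrls, Selplg and Olfml3. They were chosen by symbol, and all 9 were found among the 22236 genes of the deposited table and passed the filter on low counts that left 15853 genes to test. The hippocampus of adult male mice of 2 inbred strains, C57BL/6J (B6) and DBA/2J (D2), aged 3 to 5 months, had received an adeno-associated virus on both sides. In the KD groups this was AAV9-shRNA-Hp1bp3, a short hairpin RNA against Hp1bp3, a gene for a chromatin protein that binds heterochromatin protein 1. In the Ctrl groups it was AAV-scrmb-shRNA, a scrambled hairpin, so every animal carried virus, surgery and a hairpin, and no group was left uninjected. Hippocampi were taken at least 6 weeks later, and RNA of the whole tissue, not of sorted microglia, was sequenced from 3 mice in each of the 4 groups (B6 Ctrl, B6 KD, D2 Ctrl and D2 KD), 12 libraries in all. Libraries are numbered 1 to 3 within a group only as names.

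Microglia are the resident macrophages of the brain parenchyma. In the resting state they survey the tissue with fine processes, and the products of these genes form much of their sensing apparatus. P2RY12 and GPR34 are G protein-coupled receptors for extracellular nucleotides and for lysophosphatidylserine, CX3CR1 is the receptor for the neuronal chemokine fractalkine, and CSF1R is the receptor tyrosine kinase on which microglial survival depends. TMEM119, SIGLEC-H, FCRLS and the selectin ligand PSGL-1 (encoded by Selplg) are surface proteins, and OLFML3 is a secreted olfactomedin-domain protein. When microglia become activated, expression of the homeostatic set, P2ry12 and Tmem119 in particular, is known to fall.

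The genes P2ry12, Fcrls and Olfml3, lie apart from one another on chromosome 3. Tmem119 (chr5:113793729-113800516) and Selplg (chr5:113818536-113832644) are neighbours on the minus strand of chromosome 5. Siglech is on chromosome 7, Cx3cr1 on 9, Csf1r on 18 and Gpr34 on X (GENCODE M21 annotation of GRCm38). RefSeq sequence upstream of the annotated start was at hand for 5 of the 9 genes (P2ry12, Fcrls, Olfml3, Siglech and Cx3cr1). The 250 bases before the start are shown for 3 of them, because these are the genes whose values stand apart below: Fcrls for its strain difference, Olfml3 for its rise in B6 KD, and P2ry12 for its departure from the other genes. All 3 are written 5′ to 3′ on the minus strand of GRCm38.p6, at chr3:87263525-87263774 for Fcrls, chr3:103738002-103738251 for Olfml3 and chr3:59262986-59263235 for P2ry12. Capitals mark GAGGAA, a core of the kind that the myeloid ETS factor PU.1 binds.
Fcrls: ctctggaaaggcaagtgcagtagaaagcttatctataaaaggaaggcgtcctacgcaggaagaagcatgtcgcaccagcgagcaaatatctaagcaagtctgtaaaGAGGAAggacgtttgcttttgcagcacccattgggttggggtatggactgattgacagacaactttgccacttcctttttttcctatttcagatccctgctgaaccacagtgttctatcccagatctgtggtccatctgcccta
Olfml3: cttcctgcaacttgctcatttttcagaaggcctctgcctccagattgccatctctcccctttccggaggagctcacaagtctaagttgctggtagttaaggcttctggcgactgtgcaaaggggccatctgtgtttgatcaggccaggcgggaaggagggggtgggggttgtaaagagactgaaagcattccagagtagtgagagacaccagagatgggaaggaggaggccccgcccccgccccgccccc
P2ry12: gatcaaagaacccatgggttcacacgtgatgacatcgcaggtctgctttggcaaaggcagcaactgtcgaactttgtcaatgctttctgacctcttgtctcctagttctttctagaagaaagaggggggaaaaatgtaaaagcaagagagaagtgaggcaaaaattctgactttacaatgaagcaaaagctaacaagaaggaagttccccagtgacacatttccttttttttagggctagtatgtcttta
Searched on both strands, GAGGAA was present in 1 of the 5 windows, that of Fcrls, starting 144 bases before the RefSeq start. RefSeq and GENCODE M21 do not place every start alike. In GENCODE M21 Fcrls begins at chr3:87263738 on the minus strand, inside the window shown, so by that annotation the match lies within the gene. It was present in 23.3% of the 32851 mouse windows of the same length. This is a match of letters in a short window and says nothing about binding.

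The total expected count per library ranged from 18213084 to 39420219, and the least covered homeostatic gene, Fcrls in a D2 library, still had 73 counts. Hp1bp3 itself was 308, 294 and 310 TMM CPM, counts scaled to the library total after TMM normalization, in B6 Ctrl and 185, 182 and 259 in B6 KD, a log2 fold change of -0.54 ± 0.15 (SE, adjusted p = 0.076 in edgeR). In D2 it was 226, 215 and 234 in Ctrl and 177, 163 and 230 in KD (-0.25 ± 0.15, adjusted p = 1). The library labelled D2 KD 3 therefore lay within the range of its controls for the targeted gene, and B6 KD 3 was nearest to them, so results that rest on either are also given without it. Neuronal markers, 10 genes summing to 9005 to 12197 TMM CPM, were high in every library, as hippocampus should show, while choroid plexus genes varied between libraries of every group, from 71.0 to 5181 TMM CPM summed over 7 markers. In whole tissue, fewer microglia and less RNA per microglial cell cannot be told apart, which holds for every difference below.

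Per kilobase of the longest principal transcript, Csf1r was the most abundant of the 9 over all libraries, at 29.7 TMM CPM per kilobase. Cx3cr1 (16.0) and P2ry12 (14.6) followed, then Tmem119 (10.5), Selplg (10.4), Fcrls (7.61), Gpr34 (6.90), Siglech (6.17) and Olfml3 (5.82). In B6 Ctrl the Csf1r libraries, at 22.9 to 26.3 per kilobase, lay above those of every other gene of the set, while Cx3cr1 (12.6 to 14.4) and P2ry12 (12.2 to 15.2) overlapped. The first 4 places were the same when the merged length of all exons was used, but Selplg then dropped to 4.53 and Siglech to 3.90, the lowest of the set. Part of the Csf1r exons, 873 bases, overlaps Hmgxb3 on the opposite strand, and whether counting used the strand is not given in the sources used here.

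In B6, all 9 genes were higher on average after Hp1bp3 KD, and 1 of them, Olfml3, passed the test. The median log2 fold change of the set was 0.59, against 0.0025 over all genes tested, and the estimates ran from 0.14 for P2ry12 to 1.05 for Olfml3. Across all genes, 2.64% passed the same threshold in B6 (edgeR's quasi-likelihood test, Benjamini-Hochberg adjusted p under 0.05). At an unadjusted p under 0.05, 6 of the 9 genes passed, against 20.6% of all genes. That count was 3 without B6 KD 1 (21.0% of all genes), 4 without B6 KD 2 (16.3%) or B6 Ctrl 3 (15.6%), and 9 without B6 KD 3 (23.0%). DESeq2 called 3 of the genes (Olfml3, Tmem119 and Cx3cr1) where it called 9.82% of all genes, and limma-voom called 2 (Olfml3 and Fcrls) where it called 2.32%.

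Among the receptors, P2ry12 had the smallest difference. Its B6 Ctrl libraries were at 35.5, 28.6 and 29.7 TMM CPM and its B6 KD libraries at 42.4, 38.5 and 22.9, so that KD held both the highest and the lowest value, and the difference was 0.14 ± 0.20 on the log2 scale (adjusted p = 0.74 in edgeR). Gpr34 had the same shape, with 13.3, 12.8 and 11.5 in Ctrl and 23.2, 18.7 and 9.52 in KD (0.45 ± 0.28, adjusted p = 0.396 in edgeR). For both receptors, B6 KD 3 fell below every B6 Ctrl library.

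Cx3cr1, in contrast, was at 64.5, 62.2 and 56.5 TMM CPM in B6 Ctrl and at 108, 97.7 and 76.2 in B6 KD, without overlap (log2 fold change 0.62 ± 0.20, adjusted p = 0.107 in edgeR). Csf1r was at 123, 120 and 108 in Ctrl and at 206, 192 and 132 in KD, again without overlap (0.59 ± 0.20, adjusted p = 0.126 in edgeR). These are the 2 most abundant genes of the set, and in both the third KD library was the one closest to the controls.

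Of the surface proteins, Tmem119 was at 25.7, 18.7 and 18.7 TMM CPM in B6 Ctrl and 34.3, 36.6 and 30.7 in B6 KD (0.68 ± 0.18, adjusted p = 0.0692 in edgeR). Fcrls, an Fc receptor-like scavenger receptor found in mice, was at 21.3, 25.7 and 20.0 in Ctrl and 45.1, 35.3 and 32.8 in KD (0.76 ± 0.25, adjusted p = 0.122 in edgeR). Neither gene had overlapping groups. Siglech (14.9, 13.2 and 13.8 in Ctrl, 24.3, 18.4 and 13.9 in KD) and Selplg (24.4, 18.4 and 20.5 in Ctrl, 30.1, 31.0 and 20.6 in KD) overlapped through the third KD library, with log2 fold changes of 0.43 ± 0.18 and 0.37 ± 0.17 (adjusted p = 0.201 and 0.248 in edgeR).

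Olfml3 showed the largest difference of the 9 and the tightest KD values. It was at 22.8, 28.7 and 20.6 TMM CPM in B6 Ctrl, 24.0 ± 4.17 (SD, n = 3), and at 51.2, 48.4 and 49.6 in B6 KD, 49.7 ± 1.43 (SD, n = 3). Every KD library was above every Ctrl library, B6 KD 3 included, and Olfml3 rose 2.07-fold (log2 fold change 1.05 ± 0.18, adjusted p = 0.0344 in edgeR). The adjusted p lay close to the threshold, between 0.0187 and 0.178 when single libraries were left out, and 6 of those 12 fits kept the call. With the choroid plexus score or the log2 total count as a covariate the log2 fold change was 1.07 and 1.05, with adjusted p = 0.0581 and 0.0575 in edgeR.

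**Figure D1:**
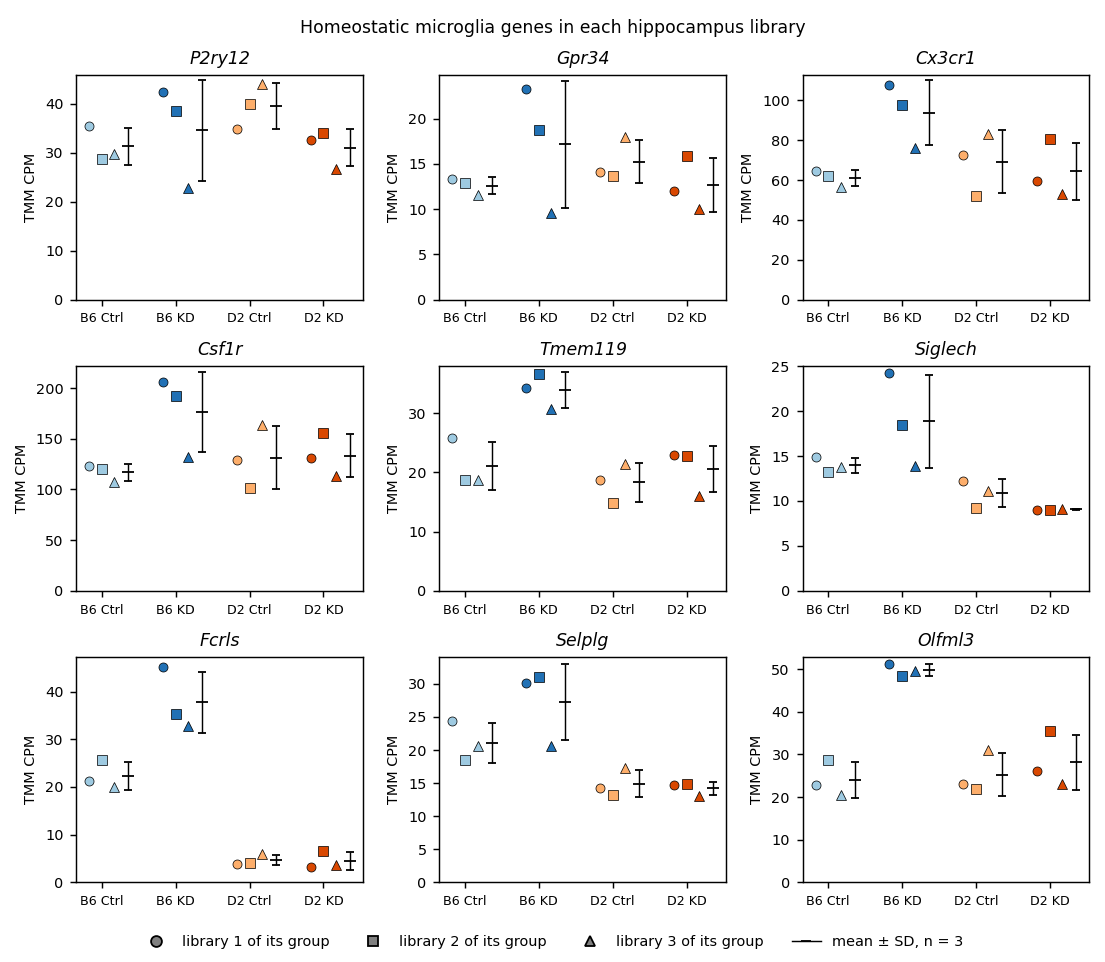
TMM CPM (y axis, from 0) of the 9 homeostatic microglia genes in each of the 12 libraries (points, with shapes for the libraries 1 to 3 of a group) by group (x axis), with the mean and SD of the 3 libraries as bars. B6 KD libraries 1 and 2 stand above all B6 Ctrl libraries for all 9 genes, and Fcrls lies between 3.21 and 6.55 in every D2 library.

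In total, 5 of the 9 genes (Csf1r, Cx3cr1, Fcrls, Olfml3 and Tmem119) had all B6 KD libraries above all B6 Ctrl libraries, which held for 13.9% of all genes. The libraries were unlike one another. B6 KD 1 and B6 KD 2 were each above all B6 Ctrl libraries for 9 of the 9 genes, and B6 KD 1 was the highest of all 12 libraries for 6. B6 KD 3, the KD library with the most Hp1bp3 RNA, exceeded all B6 Ctrl libraries for 5 genes, was below all of them for 2, and was the lowest of its group for 8. Without B6 KD 3, all 9 genes had KD above Ctrl without overlap, against 21.7% of all genes, their median log2 fold change was 0.72, and 2 were called (Olfml3 and Csf1r), where the same fit called 4.94% of all genes.

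In D2, no homeostatic gene changed detectably. The call rate was 0 of 9 in edgeR, DESeq2 and limma-voom alike, against 0% of all genes in edgeR, and 0 of 9 passed an unadjusted p under 0.05 in edgeR, against 2.85% of all genes. Of the estimates 3 were positive and 6 negative, with a median of -0.07, and the members ran from -0.35 for P2ry12 to 0.16 for Tmem119.

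P2ry12 was at 34.7, 39.96 and 44.0 TMM CPM in D2 Ctrl and at 32.5, 34.0 and 26.7 in D2 KD, and its groups did not overlap (log2 fold change -0.35 ± 0.20, adjusted p = 1 in edgeR). Siglech, at 12.2, 9.23 and 11.1 in Ctrl and 9.02, 9.02 and 9.14 in KD, was also lower in every KD library (-0.27 ± 0.18, adjusted p = 1 in edgeR). These 2 of 9 compare with 3.03% of all genes that had every D2 KD library below every D2 Ctrl library.

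The other 7 genes overlapped in D2. Csf1r, for example, was at 129, 102 and 164 TMM CPM in Ctrl and at 131, 156 and 113 in KD (0.02 ± 0.20), and Cx3cr1 at 72.3, 51.9 and 83.1 in Ctrl and 59.4, 80.3 and 53.2 in KD (-0.10 ± 0.20). Olfml3, the gene called in B6, was at 23.0, 21.8 and 31.0 in Ctrl and 26.2, 35.4 and 23.0 in KD (0.16 ± 0.18). Within D2 Ctrl the third library was the highest for 8 of the 9 genes, and within D2 KD the second was the highest for 7. Without D2 KD 3, whose Hp1bp3 level lay within the Ctrl range, the set's median was 0.01 with 5 positive estimates, and 0 of the 9 were called, against 0.00623% of all genes. Tmem119 then had both remaining KD libraries (22.9 and 22.7) above all Ctrl libraries (18.7, 14.8 and 21.4), 1 of 9 against 12.7% of all genes. P2ry12 and Siglech had theirs below, 2 of 9 against 10.2% of all genes. Leaving out a library cannot undo the separation of these 2 genes, so it was no check on it.

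**Figure D2:**
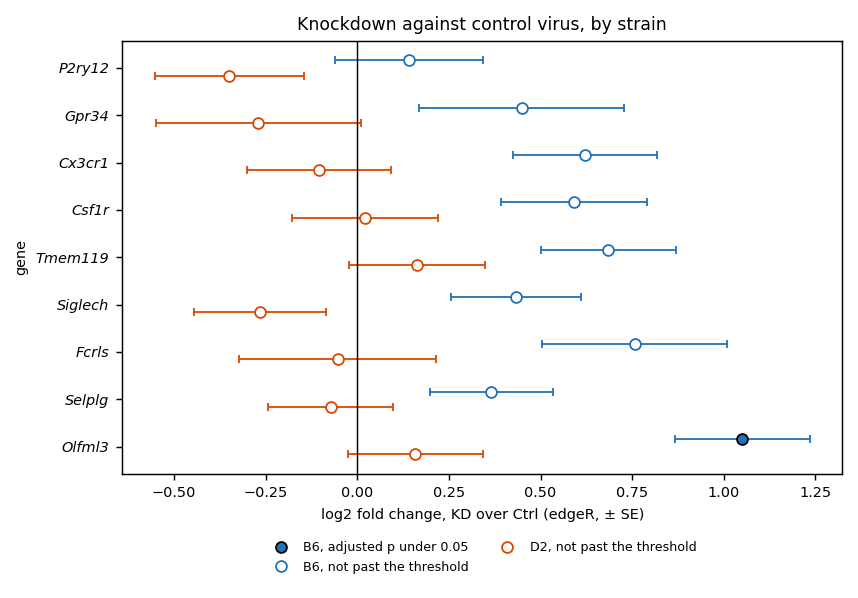
Log2 fold change of KD over Ctrl (x axis, ± SE from edgeR) for each homeostatic gene (y axis) in B6 (blue) and D2 (orange), with filled points for an adjusted p under 0.05. All 9 B6 estimates lie above 0, from 0.14 to 1.05, and Olfml3 in B6 is the only filled point, while the D2 estimates lie between -0.35 and 0.16.

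The difference between strains in the response to KD was itself tested as an interaction. All 9 estimates were negative, meaning a lower KD estimate in D2, with a median of -0.70 and a range of -0.89 (Olfml3) to -0.44 (Selplg), but 0 of 9 were called and the smallest adjusted p in the set was 0.821 in edgeR, against 0% of all genes, and DESeq2 and limma-voom also called 0 of 9. At an unadjusted p under 0.05, 3 genes passed (Olfml3, Siglech and Cx3cr1), against 5.91% of all genes. This count moved with single libraries, from 1 without B6 KD 1 (5.95% of all genes) to 8 without B6 KD 3 (9.88%), where the median was -0.84. It was 2 without D2 KD 3 (4.35%, median -0.57) and 7 with the choroid plexus score as a covariate (5.19%), with 0 of 9 called in each of these fits. Averaged over both strains, KD changed 0 of 9 genes at the adjusted threshold in edgeR, against 0% of all genes. DESeq2 called Olfml3, where it called 6.39% of the 19066 genes it fitted. Olfml3 (0.60 ± 0.13, adjusted p = 0.0606 in edgeR) and Tmem119 (0.42 ± 0.13, adjusted p = 0.124 in edgeR) were the 2 that passed unadjusted, against 19.2% of all genes.

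Because the genes share a cell type, each was also expressed relative to the rest of the set, as its log2 TMM CPM minus the mean log2 TMM CPM of the other 8. On this scale, in both strains, P2ry12 was lower and Olfml3 higher in every KD library than in every Ctrl library. P2ry12 was at 0.30, 0.06 and 0.25 in B6 Ctrl and at -0.19, -0.17 and -0.52 in B6 KD, a difference of -0.50. In D2 it was at 0.72, 1.14 and 0.78 in Ctrl and 0.71, 0.46 and 0.59 in KD, a difference of -0.29, again without overlap although D2 Ctrl 1 and D2 KD 1 were only 0.01 apart (0.72 and 0.71).

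The relative level of Olfml3 was at -0.42, 0.06 and -0.35 in B6 Ctrl and at 0.12, 0.20 and 0.73 in B6 KD, a difference of 0.58. In D2 it was at 0.05, 0.16 and 0.21 in Ctrl and at 0.36, 0.53 and 0.35 in KD, a difference of 0.27. The absence of overlap for both genes in both strains was also found with a pseudocount of 0.5 or 5. Leaving out D2 KD 3 cannot undo this separation in D2, so it was no check on it. Free of overlap were 2 genes higher and 1 lower in B6, and 3 higher and 2 lower in D2, with P2ry12 and Olfml3 included. Each gene is set against the others, so a rise in some lowers the rest. The share of all genes that separate on such a scale was not computed, so separation alone does not set a gene apart. Genes other than P2ry12 and Olfml3 were free of overlap in 1 strain only. In B6, Cx3cr1 was higher (0.07), and in D2 Tmem119 (0.28) and Csf1r (0.14) were higher and Gpr34 (-0.22) lower, the Tmem119 difference being slightly above that of Olfml3. With a pseudocount of 5 the Csf1r groups in D2 overlapped. These relative levels were not tested and are a description of 12 libraries. They show unequal differences within a set and not which gene moved.

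**Figure D3:**
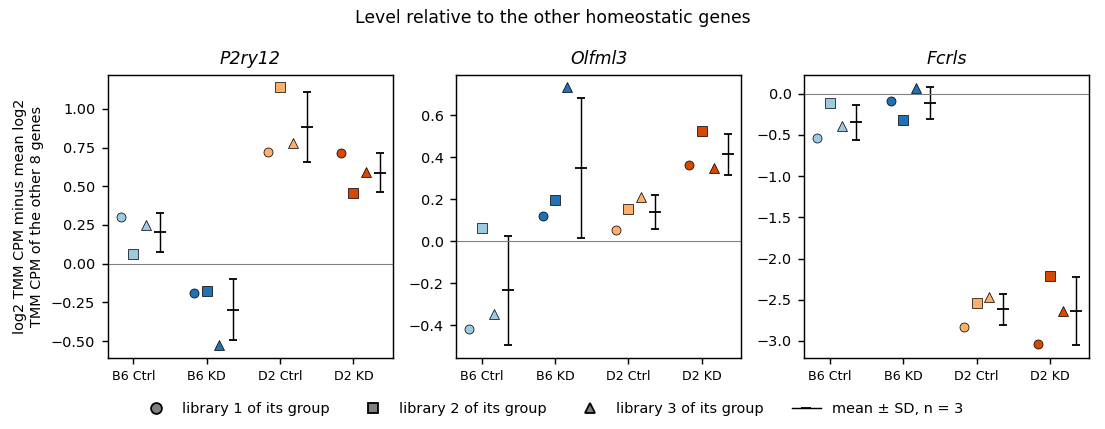
Level of P2ry12, Olfml3 and Fcrls relative to the other 8 homeostatic genes (y axis, difference in log2 TMM CPM) in each library by group (x axis), with mean and SD of 3 libraries. P2ry12 is lower and Olfml3 higher in every KD library than in every Ctrl library of the same strain, and Fcrls lies below -2 in all D2 libraries.

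Fcrls differed more between the strains than any gene of the set differed after KD. In Ctrl libraries, Fcrls was called lower in D2 and was the only one of the 9 called, where 14.0% of all genes differed. It was at 21.3, 25.7 and 20.0 TMM CPM in B6 Ctrl, 22.3 ± 2.97 (SD, n = 3), and at 3.90, 4.13 and 5.93 in D2 Ctrl, 4.65 ± 1.11 (SD, n = 3), which is 4.79-fold lower (log2 fold change -2.26 ± 0.27, adjusted p = 0.000152 in edgeR). With KD, where D2 libraries were at 3.21, 6.55 and 3.64, the gap was 8.40-fold (-3.07 ± 0.28, adjusted p = 1.76e-05 in edgeR). Over 23 fits of each comparison, the log2 fold change stayed between -2.47 and -2.14 in Ctrl and between -3.46 and -2.87 in KD. The study used a separate reference genome for each strain, so strain and alignment target cannot be told apart here.

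Selplg and Siglech were also lower in every D2 Ctrl library than in every B6 Ctrl library, which with Fcrls makes 3 of 9, against 17.9% of all genes, but neither was called in Ctrl (Selplg -0.50 ± 0.17, adjusted p = 0.0807; Siglech -0.36 ± 0.18, adjusted p = 0.269, both in edgeR). Gpr34 lay the other way, with every D2 Ctrl library (14.1, 13.7 and 17.96) above every B6 Ctrl library, as in 13.9% of all genes, but its difference did not pass the test (adjusted p = 0.643 in edgeR). The remaining 5 genes had overlapping strains. P2ry12 (0.34 ± 0.20), Gpr34 (0.28 ± 0.28), Cx3cr1 (0.18 ± 0.20), Csf1r (0.17 ± 0.20) and Olfml3 (0.07 ± 0.18) had positive estimates for D2 and Tmem119 a negative one (-0.20 ± 0.18).

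Between KD libraries, all 9 estimates were negative for D2 and 5 genes were called lower, against 15.0% of all genes called in either direction. Besides Fcrls these were Siglech (-1.06 ± 0.18, adjusted p = 0.00187), Selplg (-0.94 ± 0.17, adjusted p = 0.00278), Olfml3 (-0.82 ± 0.18, adjusted p = 0.0109) and Tmem119 (-0.72 ± 0.18, adjusted p = 0.0223), all in edgeR. The same 5 genes had every D2 KD library below every B6 KD library, as did 15.7% of all genes. Without B6 KD 3 this held for all 9, against 23.7% of all genes, and 7 were called, where the same fit called 16.1% of all genes. This comparison uses the same KD libraries as the comparisons of KD with Ctrl, so it is not a separate measurement of the B6 response.

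Averaged over both viruses, 4 of the 9 genes were called lower in D2, against 21.3% of all genes called. They were Fcrls (-2.66 ± 0.19), Selplg (-0.72 ± 0.12, adjusted p = 0.000971), Siglech (-0.71 ± 0.13, adjusted p = 0.00161) and Tmem119 (-0.46 ± 0.13, adjusted p = 0.027), all in edgeR. The Tmem119 call did not hold in every fit. It was lost with the log2 total count as a covariate (adjusted p = 0.0516 in edgeR). Leaving out single libraries also undid it, with adjusted p up to 0.0721 in edgeR. P2ry12 (0.09 ± 0.14), Gpr34 (-0.08 ± 0.20) and Csf1r (-0.12 ± 0.14) were the closest to 0.

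**Figure D4:**
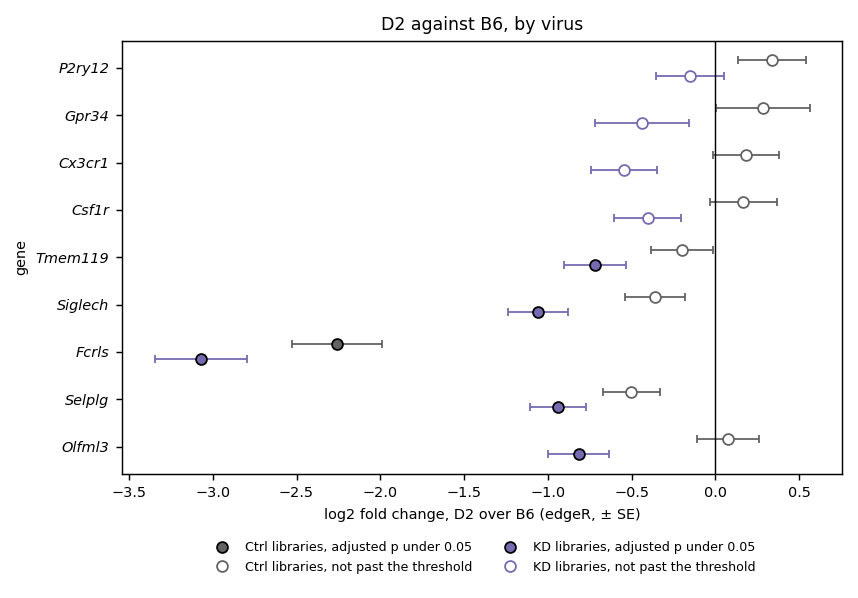
Log2 fold change of D2 over B6 (x axis, ± SE from edgeR) for each homeostatic gene (y axis) between Ctrl libraries (grey) and between KD libraries (purple), with filled points for an adjusted p under 0.05. Fcrls is far to the left in both, at -2.26 and -3.07, and 4 further genes have filled points between KD libraries.

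Across the 12 libraries, Selplg followed the mean of the other 8 genes most closely (Pearson's r = 0.92 over log2(TMM CPM + 1)), and Siglech (0.89), Tmem119 (0.87) and Cx3cr1 (0.83) came next. Csf1r (0.77), Olfml3 (0.76), Fcrls (0.69) and Gpr34 (0.59) followed less closely, and P2ry12 least, at 0.22. The libraries fall into 4 groups and differ in depth, so these values describe group differences and single libraries together.

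Among 14172 other genes with a mean of at least 1 TMM CPM, those most correlated with the mean of the 9 over all libraries were Ntpcr (0.976), Plgrkt (0.966), Trem2 (0.959), Cd68 (0.958) and Fcer1g (0.956). PLGRKT is a plasminogen receptor, TREM2 a microglial lipid receptor, CD68 a lysosomal protein of macrophages and FCER1G a signalling chain of Fc receptors. With the group means removed, the genes closest to the set were Prdx6 (0.984), Vsir (0.980), Aif1 (0.980), Lair1 (0.975) and Csf3r (0.974). Aif1 encodes the microglial marker IBA1, Vsir and Lair1 encode inhibitory receptors of leukocytes, and Csf3r the receptor for granulocyte colony-stimulating factor. With a pseudocount of 5, Tlr1 entered the first 5 over all libraries in place of Fcer1g.

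Other genes of microglia were read from lists drawn up with earlier results of these data known. Of 30 further microglial genes, 28 were higher on average in B6 KD, with a median log2 fold change of 1.12, which compares with 0.59 for the homeostatic set. Of the 30, 4 were called higher, where 2.64% of all genes were called in either direction. Itgam, the CD11b integrin subunit, was at 30.8, 29.0 and 28.9 TMM CPM in B6 Ctrl and 71.2, 74.7 and 43.3 in B6 KD (1.09 ± 0.23, adjusted p = 0.042 in edgeR). Trem2 (1.16 ± 0.39), Tyrobp (1.08 ± 0.38), Cd68 (1.25 ± 0.44), Aif1 (1.25 ± 0.34) and P2ry13 (0.78 ± 0.19) had positive estimates that did not pass (adjusted p from 0.0536 for P2ry13 to 0.138 for Tyrobp in edgeR). The other 3 calls were Gpr84 (2.06 ± 0.38), Ikzf1 (1.16 ± 0.26) and Cd37 (1.14 ± 0.26), a lipid receptor, a lymphoid and myeloid transcription factor and a tetraspanin, with adjusted p from 0.0361 to 0.0487 in edgeR. At an unadjusted p under 0.05, 27 of the 30 passed in B6, against 20.6% of all genes. The 18 activation genes had a median of 1.45, and 3 were called higher, B2m (2.23 ± 0.49), Cd9 (1.47 ± 0.28) and Ctsd (1.11 ± 0.26). Genes named for these calls outside the stated rule were named after their values were seen. In D2, 0 genes of either list were called in edgeR, and 0 passed an unadjusted p under 0.05, against 0% and 2.85% of all genes.

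The growth and identity factors of microglia gave 3 calls among 12 genes tested in B6, all higher in KD, against 2.64% of all genes called. Irf8, a transcription factor of the myeloid lineage, was at 5.85, 7.03 and 6.30 TMM CPM in Ctrl and 20.9, 23.9 and 14.0 in KD (1.61 ± 0.35, adjusted p = 0.0443 in edgeR). Runx1, a haematopoietic transcription factor, was at 1.62, 1.34 and 1.5 in Ctrl and 4.80, 5.79 and 3.88 in KD (1.69 ± 0.33, adjusted p = 0.0379 in edgeR). Tgfbr2, a receptor subunit for TGF-β, the cytokine that maintains the homeostatic state, was at 24.5, 38.5 and 22.8 in Ctrl and 57.8, 62.0 and 49.9 in KD (0.98 ± 0.22, adjusted p = 0.0453 in edgeR).

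The ligands of the homeostatic receptors did not pass the test in B6. Csf1, 1 of the 2 ligands of CSF1R, was at 34.8, 51.1 and 37.5 in Ctrl and 59.4, 61.6 and 52.9 in KD (0.50 ± 0.20, adjusted p = 0.199 in edgeR), while Il34, the other, was at 37.6, 32.5 and 32.2 in Ctrl and 28.9, 22.7 and 22.1 in KD (-0.47 ± 0.18, adjusted p = 0.161 in edgeR). Both pairs of groups were free of overlap, in opposite directions. Cx3cl1, which encodes fractalkine, was at 607, 519 and 539 in Ctrl and 442, 407 and 498 in KD (-0.31 ± 0.10, adjusted p = 0.112 in edgeR).

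Of the other factors, Tgfb1 (0.87 ± 0.25), Tgfbr1 (0.38 ± 0.21), Sall1 (0.30 ± 0.14), Smad3 (0.17 ± 0.09) and Mef2a (-0.20 ± 0.32) did not pass either (adjusted p from 0.0799 to 0.764 in edgeR). In D2, 0 of the 12 passed for KD. Between strains, Mef2a, a transcription factor shared with neurons, was lower in D2 Ctrl (83.3, 82.6 and 33.7) than in B6 Ctrl (188, 186 and 236), a difference of -1.61 ± 0.33 (adjusted p = 0.00627 in edgeR), and it was also lower in D2 between KD libraries (-1.73 ± 0.33, adjusted p = 0.00421 in edgeR).

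Genes of other cells and programmes moved beside the set. The 15 interferon-response genes summed to 91.9 to 111 TMM CPM in B6 Ctrl and to 1175, 1539 and 492 in B6 KD. Of the 15, 14 were called higher there (median log2 fold change 4.32), against 2.64% of all genes called. In D2 the same sum was 113, 110 and 277 in Ctrl and 474, 639 and 140 in KD. There 0 of 15 were called and 10 of 15 were under an unadjusted p of 0.05 in edgeR, against 0% and 2.85% of all genes. The sum of the 9 homeostatic genes was 564, 517 and 388 in B6 KD, 346, 329 and 299 in B6 Ctrl, 322, 270 and 395 in D2 Ctrl, and 311, 374 and 268 in D2 KD. The library with the largest interferon sum was also the one with the largest homeostatic sum in D2 Ctrl and in D2 KD, but not in B6 Ctrl or B6 KD. The library with the smallest interferon sum had the smallest homeostatic sum in each of the 4 groups (B6 Ctrl 3, B6 KD 3, D2 Ctrl 2 and D2 KD 3). The part of the interferon response in the result was not tested.

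Markers of other leukocytes were low. The 11 monocyte and neutrophil genes measured summed to 9.86 to 14.1 TMM CPM in B6 Ctrl and to 14.4 to 48.4 in B6 KD, of which Csf3r, a gene that microglia also express, was 7.89 to 10.3 and 10.6 to 26.4, and the neutrophil genes Camp and Retnlg had means of 0.0243 and 0.0405 over all libraries. Of the 8 tested, all 8 had positive KD estimates in B6, with a median log2 fold change of 2.18. Plac8 (4.30 ± 0.95) was the 1 called higher in B6. There, 5 of the 8 were under an unadjusted p of 0.05 in edgeR, against 20.6% of all genes. In D2 all 8 were positive as well (median 1.33), with 0 called and 1 under an unadjusted p of 0.05 in edgeR, against 0% and 2.85% of all genes. The 10 genes of border macrophages, the macrophages of meninges and vessels, summed to 28.9 to 66.2 in B6 Ctrl and 55.08 to 63.0 in B6 KD, with 1 called higher, the interferon-inducible sialoadhesin gene Siglec1 (2.70 ± 0.60). Lymphocyte genes summed to 2.75 to 3.75 and 4.26 to 12.7, and 0 of the 4 tested were called in edgeR, with 2 under an unadjusted p of 0.05. For KD in B6, edgeR called 2.64% of all genes, and 20.6% were under an unadjusted p of 0.05.

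The choroid plexus markers did not follow the homeostatic genes. B6 KD 1 and B6 KD 2, the highest libraries of the set, had 151 and 4214 TMM CPM of them, and B6 Ctrl libraries had 82.5, 2758 and 158. Of the astrocyte list 1 of 8 genes was called higher in B6 KD, the water channel gene Aqp4 (1.2 ± 0.19), against 2.64% of all genes called in either direction. The list did not move as a whole, with 5 positive and 3 negative estimates and a median log2 fold change of 0.11. Slc1a2, its most abundant gene, had a negative estimate (-0.16 ± 0.17). Under an unadjusted p of 0.05 were 4 of the 8, against 20.6% of all genes. Gfap, the intermediate filament gene of reactive astrocytes, was among these 4 (1.70 ± 0.52, adjusted p = 0.0981 in edgeR). In edgeR, 0 of 10 neuronal, 0 of 7 oligodendrocyte, 0 of 8 endothelial and 0 of 7 choroid plexus genes were called for KD in B6. Of these, 2, 0, 3 and 0 were under an unadjusted p of 0.05, against the same 20.6% of all genes.

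**Figure D5:**
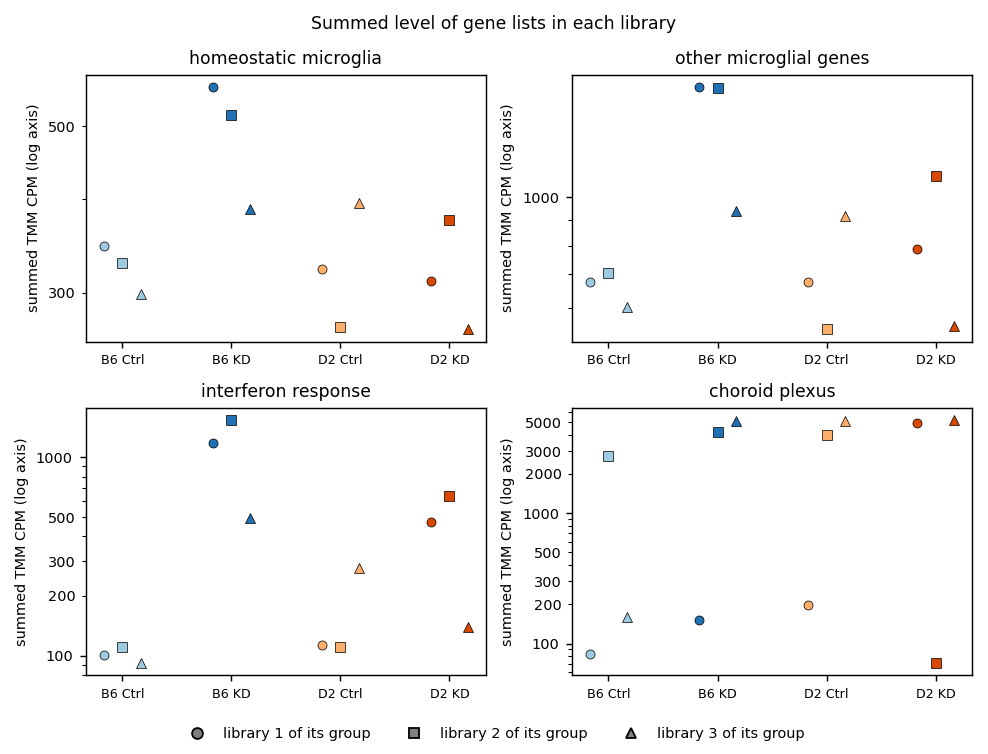
Summed TMM CPM (y axis, log scale) of the 9 homeostatic genes, 30 other microglial genes, 15 interferon-response genes and 7 choroid plexus markers in each library (points) by group (x axis). The homeostatic, other microglial and interferon sums are highest in B6 KD 1 and B6 KD 2, while the choroid plexus sum is 151 in the first of these and 4214 in the second.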

How the data were processed

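The authors deposited RSEM expected counts per gene and a second table of normalized counts, a signal scale made by dividing by DESeq2 size factors. Per the labels, RSEM 1.2.12 and Bowtie2 2.2.0 were used with GRCm38, and per the study's methods each strain was aligned to its own genome. Runs were concatenated for 10 of the 12 libraries. Each library is 1 mouse.

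Expected counts were rounded and tested in edgeR 4.0.16 (TMM, filterByExpr, glmQLFit with legacy and robust estimation, 1 mean per group over all 12 libraries) with Benjamini-Hochberg adjustment over 15853 genes. TMM CPM describes levels. The normalized counts, of which 100% of 266784 values came out as whole reads within 0.01, served as an alternative, beside DESeq2 1.42.0, limma 3.58.1 (voom), other filters, scalings and covariates, and 12 fits each without 1 library. The fits were tested on simulated data. Replicate pairs differed by more than sampling noise (chi-square per degree of freedom from 22.4 to 106).

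The 9 genes, the lists and the tests were chosen with earlier results of these data known. Genes named were the 9, Hp1bp3, growth and identity factors, selected microglial genes, and the 5 most correlated genes; some of these are not reported here. Other lists are given by counts, and their called genes were named after their values were seen. Adgre1, Vsir and Chil3 were matched by identifier, and Nrros and Spi1 were not analysed here. Lengths and positions come from GENCODE M21. Libraries in doubt were left out of overlap counts, and merged exon lengths tried, after seeing the data.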

Additional observations from a re-analysis of the deposited data

How the results depend on the processing

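With 3 libraries a group, the calls close to the threshold moved with the settings. In B6, KD called 1 gene with edgeR, 3 with DESeq2, 2 with limma-voom, 0 with the log2 total count and 0 with the choroid plexus score as a covariate. The shares of all genes called were 2.64% with edgeR, 9.82% with DESeq2 and 2.32% with limma-voom. Both covariate fits called 0% of all genes. Leaving out 1 library gave 0 to 2 calls there. The count was 0 without B6 Ctrl 1, B6 Ctrl 3, B6 KD 1, B6 KD 2 or D2 Ctrl 1, fits that called 0% of all genes. It was also 0 without D2 Ctrl 2 (0.280% of all genes). It was 2 without B6 KD 3 (Csf1r added, 4.94% of all genes) or D2 KD 3 (Tmem119 added, 4.19%). Averaged over strains, DESeq2 called 1 (Olfml3), against 6.39% of the 19066 genes it fitted. Leaving out 1 library gave 0 to 2 calls there. These were Olfml3 without D2 Ctrl 3 (2.03% of all genes), and Olfml3 and Tmem119 without D2 KD 3 (4.97%). Between strains, leaving out 1 library gave 1 to 2 calls in Ctrl (Selplg added without B6 KD 3), against 10.4% to 15.3% of all genes. In KD it gave 4 to 7 calls, against 11.4% to 16.1% of all genes. Tmem119 lost its call in D2 KD against B6 KD without B6 KD 1, B6 KD 2 or D2 KD 3. Averaged over viruses, leaving out 1 library gave 3 to 5 calls between strains, against 18.2% to 23.1% of all genes. There Tmem119 lost its call without B6 Ctrl 1, B6 KD 1, B6 KD 2, D2 Ctrl 1, D2 Ctrl 2 or D2 KD 3. Olfml3 was added without D2 Ctrl 3 or D2 KD 2, and in DESeq2, which called 20.5% of the 19066 genes it fitted. Counts of genes without overlap were tried after seeing the data. Without B6 KD 3 the count went from 5 to 9 in B6 KD (from 13.9% to 21.7% of all genes). Without D2 KD 3 it went from 0 to 1 above Ctrl in D2 (from 2.93% to 12.7%). For D2 KD below B6 KD it went from 5 to 9 without B6 KD 3 (from 15.7% to 23.7%) and was 5 without D2 KD 3 (18.7%). The causes were not tested.

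Uncalled estimates near 0 changed sign. With the total count covariate, Csf1r in D2 was -0.0011. Leaving out 1 library, the log2 fold change for KD ran from -0.066 to 0.34 for P2ry12 in B6, and in D2 from -0.13 to 0.21 for Csf1r, -0.30 to 0.048 for Cx3cr1, -0.44 to 0.16 for Fcrls, -0.15 to 0.044 for Selplg and -0.040 to 0.33 for Olfml3. Averaged over strains it ran from -0.076 to 0.21 for Gpr34 and -0.052 to 0.15 for Siglech. For D2 against B6 it ran in Ctrl from -0.10 to 0.21 for Olfml3 and -0.021 to 0.32 for Csf1r, in KD from -0.36 to 0.044 for P2ry12, and averaged from -0.21 to 0.076 for Gpr34 and -0.010 to 0.19 for P2ry12. Fcrls stayed called for both strain comparisons under every alternative run. No paired analysis was run, because each library is a separate mouse and the labels name no pairs between groups.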
